A study of Oncorhynchus mykiss with 70 samples.

Results

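Ovaries of adult rainbow trout were compared with 14 somatic tissues that are not skeletal muscle, probe by probe, for 49 genes of the activin receptor pathway. The samples were taken by their titles: 3 samples titled Ovaries of 70 in the series, and 42 samples (3 each) of Brain, Retina, Gill, Heart, Bulbus Arteriosus, Liver, Spleen, Head Kidney, Visceral Fat, Cardiac Stomach, Pyloric Caeca, Distal Intestine, Tongue and Pelvic Fin. Testes (3 samples) served as a second comparison. The fish belonged to the clonal Swanson and Oregon State University lines, were 2 to 3 years old, lived in recirculating systems and received no treatment. The study's question was where each gene of this pathway, and each copy of it, is expressed in adult tissues. Ovaries came from females and every other tissue from males, so tissue and sex cannot be told apart in any comparison below. RNA extraction differed between tissues by reagent or kit, so extraction and tissue cannot be told apart either. The labels give neither the line of a sample nor the stage of the ovary. The design text calls the replicates biological. The p-values rest on a spread between samples of a tissue that was estimated over all 70 samples. They do not measure the spread of the Ovaries samples alone. The panel holds no marker of granulosa, theca or germ cells, so the ovary label could not be checked against cell type markers.

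Activins and inhibins are dimeric hormones of the TGF-beta family that share their beta chains. Beta chains pair with each other to form activins, and a beta chain paired with the inhibin alpha chain forms inhibin. In mammals the granulosa cells of the ovary and the Sertoli cells of the testis are main sources of inhibin, which lowers the release of follicle-stimulating hormone, whereas activin raises it. Activins and myostatins bind type II receptors (acvr2), which phosphorylate type I receptors (acvr1). Type I receptors in turn phosphorylate receptor-regulated Smads, which enter the nucleus with a common Smad. Follistatin binds and blocks the ligands, bambi is a receptor without kinase activity, and the inhibitory Smads oppose the signal. Salmonids carry many of these genes as duplicated copies, which the panel reads with separate probes.

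The results below turn most on the inhibin alpha probes and on 1 of the copies of an activin beta A gene, so the targets of these probes and of their duplicates are shown. Each target is 100 bases long in the authors' probe list. Those of inhab1, inhbab1 and inhbab2 are given whole and that of inhab2 from base 64 to base 93. Letters are in 5′ to 3′ order, and capitals mark the longest run that the targets of the copies of a pair share, which is 8 bases for the inhibin alpha copies and 5 bases for the beta A copies. The inhab1 gene (LOC100135804) lies on chromosome 18, inhab2 (LOC110528842) on chromosome 7, inhbab1 (LOC110509121) on chromosome 28 and inhbab2 (LOC110529989) on chromosome 8 in the authors' gene list. No exon or position within the gene was assigned here, because no genome build is named in the files.
inhab1: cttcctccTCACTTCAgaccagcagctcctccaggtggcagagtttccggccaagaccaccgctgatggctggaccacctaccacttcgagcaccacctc
inhab2: tctacactactTCACTTCAtctactagaag
inhbab1: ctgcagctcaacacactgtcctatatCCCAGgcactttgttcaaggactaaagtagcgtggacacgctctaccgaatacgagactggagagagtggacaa
inhbab2: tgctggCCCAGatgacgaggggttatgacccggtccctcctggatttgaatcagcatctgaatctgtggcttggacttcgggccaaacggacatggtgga
The targets of a pair share no longer run than these capitals. The authors' notes say that the inhab1 probe binds the inhab2 locus too, while the inhab2 probe is listed as specific. The inhab1 counts are therefore a reading of both inhibin alpha loci. The acvr2ba1 probe likewise reads the acvr2ba2 locus too, and the smad2a2 probe reads both smad2 genes.

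NanoString counts colour-barcoded probes on RNA without amplification. Total counts were 228549 in Ovaries 1, 235013 in Ovaries 2 and 127873 in Ovaries 3, within the range of the somatic samples (56080 to 269554). The 49 pathway probes took 44104, 46159 and 7223 of these counts, against a highest value of 12816 among somatic samples. Ovaries 3 therefore stood apart from the other Ovaries samples before any scaling. The reference genes differed too: actb counted 82290, 81568 and 29141, ef1a 21202, 27986 and 5397, and tbp 1088, 1273 and 1017 in Ovaries 1, 2 and 3. The negative controls averaged 8.63, 8.25 and 7.5 counts, and 45, 48 and 33 of the 49 probes exceeded the mean plus 2 SD of the sample's negative controls. Each tbp count in Ovaries lay above the highest somatic tbp count (701). Levels below are reference-scaled counts, that is, counts divided by a factor, with a geometric mean of 1 over the samples, that is proportional to the geometric mean of tbp, actb and ef1a. Since probes can differ in efficiency, levels are compared between samples for 1 probe and not between probes.

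Ovaries differed from the mean of the 14 somatic tissues in 15 of 49 probes (30.6%), of which 14 were higher (28.6%) and 1 was lower (2.04%). The test was edgeR's quasi-likelihood test with Benjamini-Hochberg adjustment over the 49 probes and a threshold of 0.05, and 21 probes had an unadjusted p below it. Each SE below is derived from this test, as the absolute log2 difference divided by the square root of its F. It carries the spread shared by all tissues, so it can be small where the Ovaries samples lie far apart. The mean of the 14 tissues is taken over their log-scale coefficients, so it is not the arithmetic mean of their levels. The 2 can differ in direction. The arithmetic mean level of inhbba1 was 26.6 in Ovaries and 40.3 over the 14 tissues, with a log2 difference of 0.06. That of mstna1 was 23.7 and 30.4, with a log2 difference of 0.29. The median log2 difference over all 49 was 0.20. Without Ovaries 3 the test called 9 probes (18.4%), all of them among the 15 and all higher. The share of calls that were higher depended on the scaling. The geometric mean of the pathway genes as scale gave 9 higher (18.4%) and 7 lower (14.3%), together 32.7%. That scale is made of the 49 probes under test, so the rise of inhab1, inhab2 and inhbab1 enters it. How far this moves the other probes was not tested. The main scale likewise holds tbp, whose raw counts in Ovaries lay above every somatic count. TMM gave 18 higher and 5 lower (46.9% in all), and so did DESeq2's own size factors. Scaling by ef1a with tbp gave 7 higher and 6 lower (26.5%), actb with tbp 14 and 5 (38.8%), actb with ef1a 21 and 0 (42.9%), and the positive-control probes 27 and 0 (55.1%). The median log2 difference of all 49 moved with the scale, to −0.39 with the pathway genes and 1.39 with the positive controls, so values below are relative to the reference genes. With the pathway genes as scale and Ovaries 3 left out, a setting chosen after seeing the data, 5 were higher (10.2%) and 11 lower (22.4%). With limma on log2(scaled count + 10), 13 were called (26.5%), and acvr2ba2, inhbbb1, smad4bb1 and smad4bb2 of the 15 were not among them. These p-values do not carry the spread between tissues. With counts summed per tissue and the tissue as unit, 3 probes passed (6.12%), and they were inhab1, inhab2 and inhbab1. In that fit Ovaries is 1 unit, so the spread between Ovaries samples does not enter. Its sums for these probes come almost wholly from Ovaries 1 and 2 (950, 1388 and 5 counts of inhbab1 in Ovaries 1, 2 and 3).

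**Figure D1:**
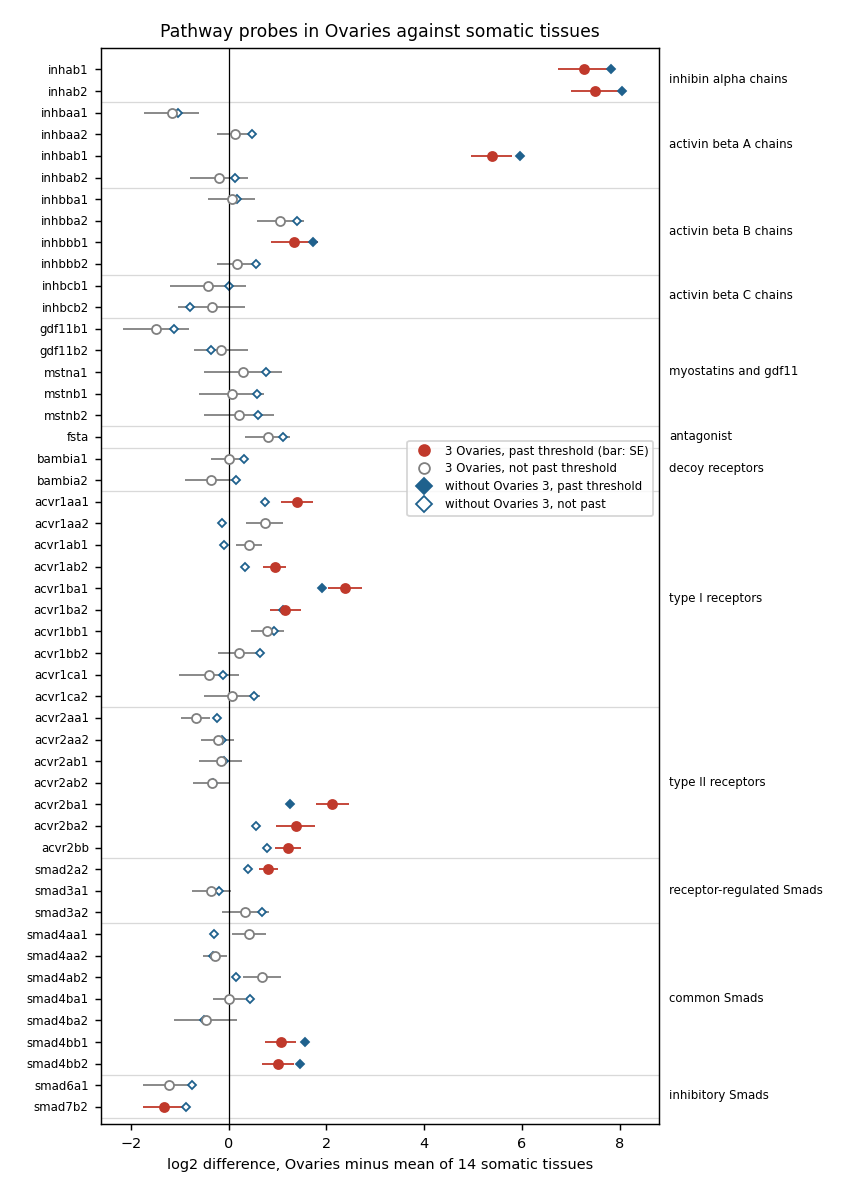
Log2 difference of each of the 49 pathway probes between Ovaries and the mean of 14 somatic tissues (over log-scale coefficients), grouped by gene list. Circles are the fit with 3 Ovaries samples, bars the SE derived from its F, and diamonds the fit without Ovaries 3. Filled symbols passed the threshold. The inhibin alpha probes and inhbab1 lie at 5.38 or above in both fits, and 6 of the 15 filled circles lie beside an open diamond.

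Both inhibin alpha probes were far higher in Ovaries than in any somatic tissue. The inhab1 level was 3770, 2574 and 165 in Ovaries 1, 2 and 3, and ran from 0.298 through a median of 13.4 to 53.6 (Spleen 1) in the 42 somatic samples. All 3 Ovaries samples lay above all somatic samples, although Ovaries 3 was 18.9-fold below the geometric mean of the others. The inhab1 difference was 7.27 ± 0.53 (log2, SE) or 154-fold (edgeR's quasi-likelihood test, adjusted p = 1.17e-17), and 7.81 without Ovaries 3. The inhab2 level was 2722, 2278 and 82.1 in Ovaries 1, 2 and 3, against a somatic range from 0.507 through 8.86 to 37.8 (Bulbus Arteriosus 3). Again no somatic sample reached the lowest Ovaries sample. The inhab2 difference was 7.48 ± 0.49 (log2, SE) or 179-fold (edgeR's quasi-likelihood test, adjusted p = 3.42e-19), and 8.04 without Ovaries 3. In the somatic samples these probes averaged 31.7 and 20 raw counts, beside a median of 6.75 for the mean of a sample's negative controls, so the folds depend on how background is treated: limma on log2(scaled count + 10) gave differences of 5.70 and 5.42. In bulk RNA such as this, fewer cells of a type and less RNA per cell cannot be told apart.

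Inhibin alpha took a large share of all pathway counts in Ovaries 1 and 2, and also in Testes. The inhab1 probe held 40.4% of them in Ovaries 1 (95% Wilson interval 39.9% to 40.8%), 30.3% in Ovaries 2 (29.9% to 30.8%) and 4.72% in Ovaries 3 (4.26% to 5.23%). These intervals cover counting error only. The inhab2 share was 29.1%, 26.8% and 2.35% in Ovaries 1, 2 and 3. In Testes 1, 2 and 3 inhab1 held 26.9%, 24.9% and 20.8%, and inhab1 and inhab2 had the most counts in each of these samples. In Ovaries 1 and 2 inhab1 and inhab2 were the probes with the most counts, whereas in Ovaries 3 smad2a2 led with 17.7%, followed by acvr1ab2 with 14.4% and acvr1ba1 with 12.3%. The shares of Ovaries 3 lay within those of somatic samples, 3.36% to 23.7% for smad2a2, 2.90% to 25.6% for acvr1ab2 and 0.279% to 18.7% for acvr1ba1. Such an order of probes also carries their efficiencies, and inhab1 counts include RNA of the inhab2 locus. The ratio of inhab1 to inhab2 counts was 1.38, 1.13 and 2.01 in Ovaries 1, 2 and 3, and the fitted log2 ratio did not differ from that of somatic tissues past the threshold (0.02 ± 0.55, SE, edgeR's quasi-likelihood test, adjusted p = 0.984). This test cannot decide whether the use of the copies differs. The inhab1 probe reads both loci, and in the somatic samples inhab1 and inhab2 averaged only 31.7 and 20 raw counts. Only these 2 probes of 49 (4.08%) had every Ovaries sample above every somatic sample, and none had every Ovaries sample below. With Ovaries 1 and 2 alone, inhbab1 joined them, which made 3 (6.12%).

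**Figure D2:**
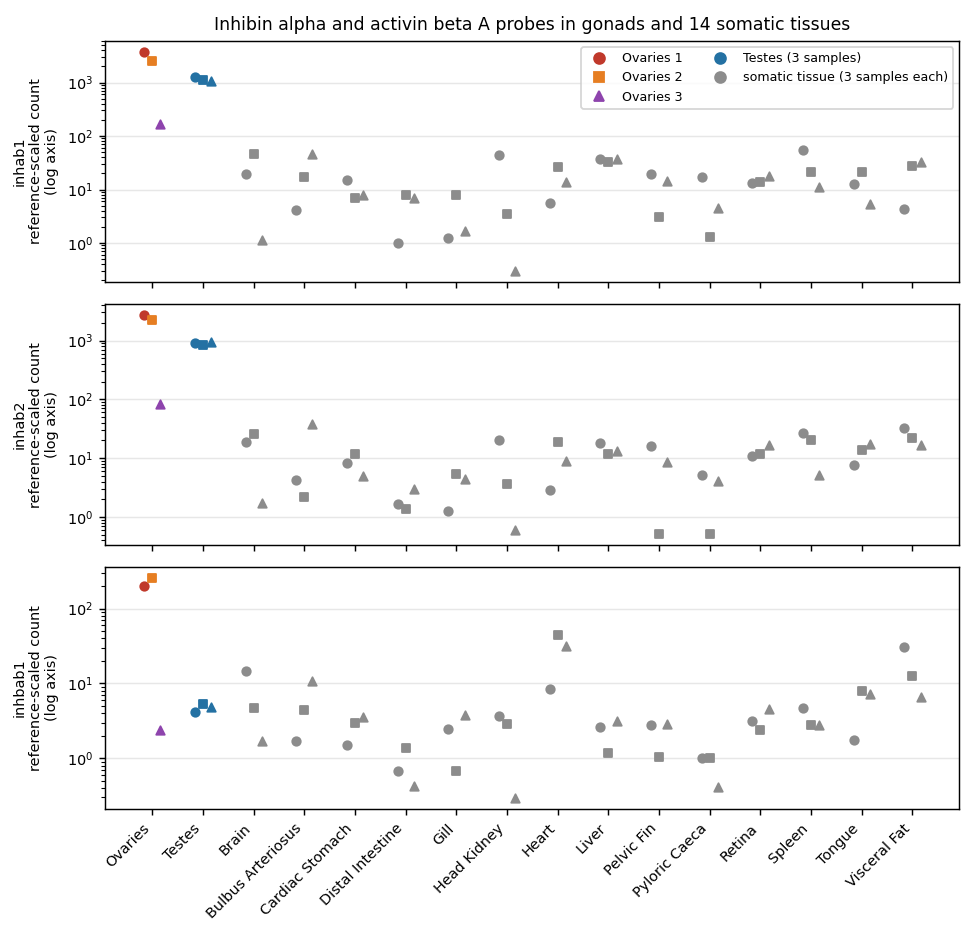
Reference-scaled counts (log axis) of inhab1, inhab2 and inhbab1 in each sample of Ovaries, Testes and 14 somatic tissues, 1 point per sample. Ovaries 1 and 2 are above every other sample for all 3 probes; Ovaries 3 stays above the somatic samples at 165 and 82.1 for the inhibin alpha probes and lies among them at 2.42 for inhbab1.

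Of the 4 activin beta A probes, 1 was higher in Ovaries and the others did not pass the test (median log2 difference −0.03). Scaled on the pathway genes, 1 of the 4 was called higher and 1 lower, with or without Ovaries 3. On the positive controls 2 of the 4 were called higher and none lower. The inhbab1 level was 201 in Ovaries 1, 255 in Ovaries 2 and 2.42 in Ovaries 3, against a somatic range from 0.298 through a median of 2.88 to 44.6 (Heart 2). Ovaries 1 and 2 exceeded every somatic sample, and Ovaries 3, with 5 raw counts, lay below its own negative controls' mean of 7.5. The inhbab1 difference was 5.38 ± 0.42 (log2, SE, edgeR's quasi-likelihood test, adjusted p = 1.02e-16) and 5.95 without Ovaries 3. Its SE and p use the spread shared by all tissues and do not measure how far apart the Ovaries samples lay. Its size rests on somatic counts at background, and was 2.61 with limma and a pseudocount of 10 and 8.24 with the negative controls subtracted, past the threshold in both. Its duplicate inhbab2 was at 3.18, 9.01 and 1.93 in Ovaries, and differed from the somatic mean by −0.19 ± 0.60 (log2, SE). For inhbaa1 the Ovaries levels were 3.60, 11.2 and 5.32, with a difference of −1.17 ± 0.57 (log2, SE). For inhbaa2 they were 16.9, 9.01 and 4.35, with a difference of 0.13 ± 0.36 (log2, SE). The beta A probes counted little in the somatic samples, where their mean raw counts were 30.1 for inhbaa1, 19.6 for inhbaa2, 7.38 for inhbab1 and 11 for inhbab2, beside a median of 6.75 for the mean of a sample's negative controls.

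Among the 4 activin beta B probes, inhbbb1 (chromosome 7) was higher in Ovaries, and the median log2 difference of the 4 was 0.61. Its level was 136, 60.5 and 28.5 in Ovaries 1, 2 and 3, against a somatic range from 3.58 through 29.4 to 133 (Bulbus Arteriosus 1), and Ovaries 3 lay near the somatic median. The difference was 1.34 ± 0.49 (log2, SE) by edgeR's quasi-likelihood test (adjusted p = 0.0262), 1.73 without Ovaries 3, and it no longer passed without Ovaries 1. The inhbbb1 call was also lost with pathway scaling (adjusted p = 0.0504), with limma (adjusted p = 0.140) and with the negative controls subtracted (adjusted p = 0.108). The inhbba2 level was 55.5, 71.5 and 21.7 in Ovaries, and its difference of 1.06 ± 0.48 (log2, SE) did not pass. The other beta B probes, inhbba1 (36.0, 21.5 and 22.2) and inhbbb2 (44.1, 42.6 and 12.1), differed by 0.06 and 0.17 on the log2 scale, each less than its standard error. Neither of the 2 activin beta C probes passed the test. Their differences were −0.43 for inhbcb1 and −0.35 for inhbcb2, and inhbcb1 had 22, 30 and 1 raw counts in Ovaries.

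Of the 7 probes of type II receptors, which bind the ligand first, the 3 of the acvr2b family were higher in Ovaries. The 4 of acvr2a did not pass the test. The acvr2ba1 probe reads the acvr2ba2 locus too, so no probe reads the acvr2ba1 copy alone. Of all 49 probes 28.6% were higher. The median log2 difference of the 7 was −0.16, against 0.20 over all 49. The acvr2ba1 level was 37.9, 59.0 and 172 in Ovaries 1, 2 and 3, against 2.48, 16.9 and 158 (Liver 2) as the lowest, median and highest somatic sample. The difference was 2.12 ± 0.34 (log2, SE) or 4.36-fold (edgeR's quasi-likelihood test, adjusted p = 5.27e-07) and 1.25 without Ovaries 3, still past the threshold, though not with limma without Ovaries 3 (0.85, adjusted p = 0.144). Its duplicate acvr2ba2, which the acvr2ba1 probe reads as well, was at 15, 60.3 and 122 in Ovaries and between 2.09 and 303 in somatic samples. Its difference of 1.37 ± 0.40 (log2, SE) passed with all 3 samples (edgeR's quasi-likelihood test, adjusted p = 0.00569) but not without Ovaries 3, at 0.57 (adjusted p = 0.50). For acvr2bb the Ovaries levels were 32.6, 19.7 and 54.6, against a somatic range from 2.98 to 45.8. The acvr2bb difference was 1.22 ± 0.27 (log2, SE, edgeR's quasi-likelihood test, adjusted p = 0.000235), and 0.78 without Ovaries 3 (adjusted p = 0.0813). Liver was the highest somatic tissue for acvr2ba1 (127 ± 26.8, SD, n = 3) and acvr2ba2 (245 ± 52.6, SD, n = 3).

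The acvr2a receptors are the other class of activin type II receptor. The acvr2aa1 level was 137, 154 and 28.5 in Ovaries 1, 2 and 3, so that Ovaries 3 lay below all 14 somatic tissue means while the other samples lay near the somatic median of 149. Its difference was −0.67 ± 0.30 (log2, SE). For acvr2aa2 (65.7, 86.0 and 62.8), acvr2ab1 (32.6, 34.2 and 28.0) and acvr2ab2 (29.0, 43.6 and 33.8) the 3 Ovaries samples lay close together, and the differences were −0.22, −0.16 and −0.35 on the log2 scale. Scaled on the pathway genes, acvr2aa1 and acvr2aa2 were called lower, and the 3 acvr2b probes stayed higher. Scaled on the positive controls, the acvr2a differences turned to between 0.66 and 0.94 and none passed. With the pathway genes as scale and Ovaries 3 left out, acvr2ba2 and acvr2bb turned to −0.28 and −0.041, not past the threshold, and none of the 7 type II receptors was called higher and 4 lower.

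Of the 10 type I receptors, 4 were higher in Ovaries, against 28.6% of all 49 probes, and none was lower, with a median log2 difference of 0.76 (0.20 over all 49). The largest difference was that of acvr1ba1 (chromosome 9), a copy of acvr1b, a receptor kinase for activin. Its level was 118, 282 and 431 in Ovaries 1, 2 and 3, against a somatic range from 10.9 through 44.1 to 475 (Distal Intestine 2). Ovaries 1 exceeded 12, Ovaries 2 exceeded 13 and Ovaries 3 all 14 of the somatic tissue means. The difference was 2.38 ± 0.35 (log2, SE) or 5.22-fold (edgeR's quasi-likelihood test, adjusted p = 1.21e-07), and 1.92 without Ovaries 3. Its duplicate acvr1ba2 had the narrowest range of the 4 in Ovaries, at 87.5, 116 and 112, against 2.59, 40.9 and 192 as lowest, median and highest somatic sample. The acvr1ba2 difference was 1.15 ± 0.32 (log2, SE, edgeR's quasi-likelihood test, adjusted p = 0.00301), and 1.11 without Ovaries 3, past the threshold in both. It did not pass with pathway scaling (0.74, adjusted p = 0.0799) or with limma without Ovaries 3 (0.94, adjusted p = 0.0887).

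The calls of the other type I receptors that passed were lost without Ovaries 3. The acvr1aa1 level was 10.2, 12.7 and 32.4 in Ovaries 1, 2 and 3, against a somatic median of 6.71 and a highest of 28.4 (Brain 1). Its difference was 1.40 ± 0.33 (log2, SE, edgeR's quasi-likelihood test, adjusted p = 0.000531), and 0.73 without Ovaries 3 (adjusted p = 0.220). The acvr1ab2 level was 179, 219 and 504, against a somatic range from 54.3 to 824 (Pyloric Caeca 1). It differed by 0.94 ± 0.24 (log2, SE, edgeR's quasi-likelihood test, adjusted p = 0.00129), and by 0.35 without Ovaries 3. With pathway scaling and no Ovaries 3, acvr1aa1 turned to −0.084 and acvr1ab2 to −0.52. These genes are copies of acvr1, a type I receptor better known for signals of bone morphogenetic proteins. Of the 6 type I receptors that did not pass, acvr1bb1 had the largest difference (0.79 ± 0.34, log2, SE) and acvr1ca1 the lowest (−0.39 ± 0.61). The receptor acvr1ca1, a copy of a gene known from fat in mammals, was at 11.4, 24.6 and 7.73 in Ovaries, whereas Visceral Fat reached 798 ± 451 (SD, n = 3).

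**Figure D3:**
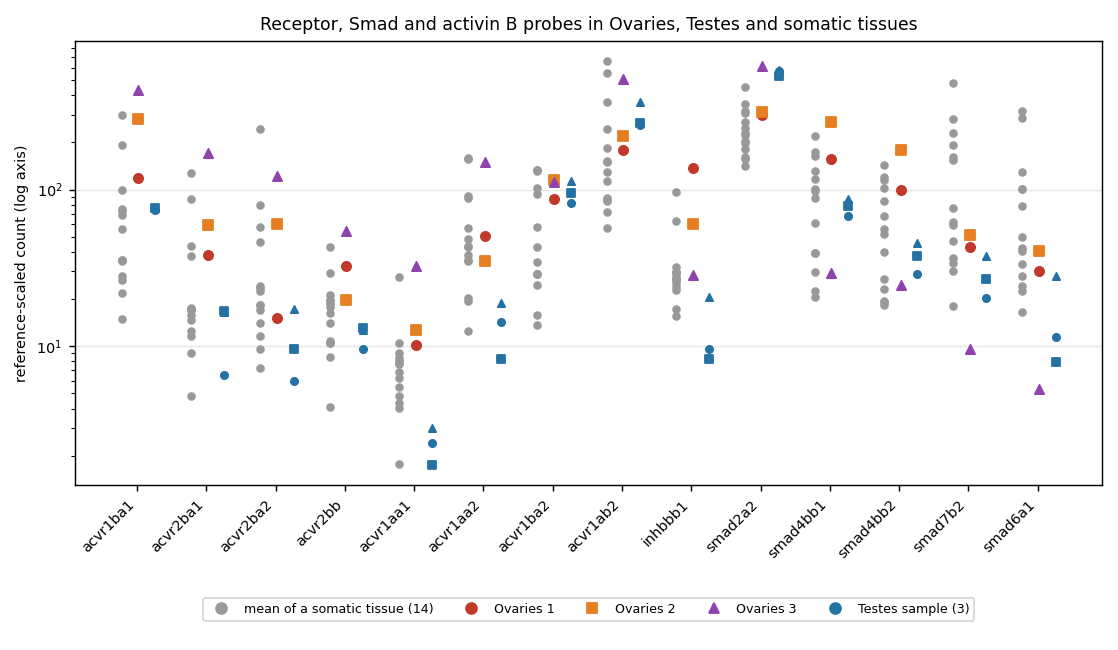
Reference-scaled counts (log axis) of receptor, Smad and activin B probes; grey points are the means of the 14 somatic tissues, coloured points the 3 Ovaries samples and blue points the 3 Testes samples. Ovaries 3 is the highest Ovaries sample for acvr2ba1 (172) and acvr1ba1 (431) and the lowest for smad4bb1 (29.5) and smad7b2 (9.66).

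Among the Smads, 3 of 10 receptor-regulated and common Smads were higher in Ovaries, near the 28.6% of all 49 probes, and 1 of 2 inhibitory Smads was lower (2.04% of all). The probe smad2a2, which reads a receptor-regulated Smad phosphorylated by activin receptors, was at 300, 312 and 617 in Ovaries 1, 2 and 3, against 117, 233 and 458 (Brain 3) as the lowest, median and highest somatic sample. Its difference was 0.81 ± 0.20 (log2, SE, edgeR's quasi-likelihood test, adjusted p = 0.000913), and 0.39 without Ovaries 3, not past the threshold. With pathway scaling as well it turned to −0.47. The common Smads smad4bb1 (155, 271 and 29.5) and smad4bb2 (98.7, 178 and 24.6) showed the reverse order, with Ovaries 3 lowest. The difference was 1.07 ± 0.32 (log2, SE) for smad4bb1 by edgeR's quasi-likelihood test (adjusted p = 0.00577), and 1.56 without Ovaries 3. For smad4bb2 it was 1.01 ± 0.33 (log2, SE, edgeR's quasi-likelihood test, adjusted p = 0.0121), and 1.47 without Ovaries 3. Without Ovaries 2, with scaling on the pathway genes, and with limma, neither smad4bb probe passed. The other 5 common Smads and the smad3 probes differed by −0.47 to 0.68 on the log2 scale and did not pass.

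The inhibitory Smads had differences of −1.21 (smad6a1) and −1.31 (smad7b2), and only Ovaries 3 lay below all 14 somatic tissue means. Ovaries 1 and 2 exceeded 4 and 6 of these means for smad6a1, and 4 and 5 for smad7b2. The smad7b2 level (chromosome 12) was 43.0, 51.1 and 9.66 in Ovaries 1, 2 and 3, against a somatic range from 12.8 through 71.8 to 546 (Bulbus Arteriosus 2), and Ovaries 3 lay below every somatic sample. Its difference was −1.31 ± 0.43 (log2, SE), or 2.48-fold lower (edgeR's quasi-likelihood test, adjusted p = 0.0121), and −0.88 without Ovaries 3 (adjusted p = 0.220). For smad6a1 the Ovaries levels were 30.3, 40.4 and 5.32, and the difference of −1.21 ± 0.53 (log2, SE) did not pass (edgeR's quasi-likelihood test, adjusted p = 0.0726). Scaled on the pathway genes both were called lower, with or without Ovaries 3, whereas on the positive controls the differences were −0.02 and 0.06, neither past the threshold. Bulbus Arteriosus was the highest somatic tissue for both, at 479 ± 60.0 for smad7b2 and 316 ± 265 for smad6a1 (SD, n = 3 each).

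None of the 5 myostatin and gdf11 probes, the follistatin probe or the 2 bambi probes passed the test. Scaled on the pathway genes, 1 of the 5 was called lower, with or without Ovaries 3, and 1 of the 2 bambi probes with all 3 Ovaries samples only. On the positive controls follistatin and 1 of the 2 bambi probes were called higher, and none of the 5 passed. Follistatin (fsta, read at 2 loci by 1 probe) was at 22.2, 26.8 and 9.18 in Ovaries 1, 2 and 3, and its difference was 0.80 ± 0.45 (log2, SE). The bambia1 level was 78.8, 130 and 44.0 in Ovaries, with a difference of 0.00 ± 0.37, and bambia2 was at 19.1, 30 and 1.93, with −0.36 ± 0.53 (log2, SE). Ovaries 3 had 4 raw counts of bambia2 against 90 and 163 in the others. Among the ligands related to myostatin, the differences ran from −1.49 ± 0.67 (log2, SE) for gdf11b1 to 0.29 ± 0.79 for mstna1, a probe that reads both copies of that myostatin. The gdf11b1 difference was the lowest of all 49 probes. The mstna1 level was 36.6, 30 and 4.35 in Ovaries, with Ovaries 3 lowest again.

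Ovaries 3 did not differ from the other Ovaries samples by 1 factor. Against the geometric mean of Ovaries 1 and 2, 12 of 49 probes were more than 2-fold higher in it, 26 more than 2-fold lower and 11 within 2-fold. Between Ovaries 1 and 2 the same counts were 5, 1 and 43. The 12 were acvr1aa1, acvr1aa2, acvr1ab1, acvr1ab2, acvr1ba1, acvr2ba1, acvr2ba2, acvr2bb, inhbcb2, smad2a2, smad4aa1 and smad4ab2, so 8 of them were receptors of 17 on the panel. The lower probes included both inhibin alpha, 3 of 4 beta A and 3 of 4 beta B chains, follistatin, both bambi probes and both inhibitory Smads. The inhab2 level was 30.3-fold lower in Ovaries 3. For inhbab1 (950, 1388 and 5 raw counts) and mstnb1 (63, 52 and 1) no fold is given, because Ovaries 3 lay below its negative controls' mean of 7.5. The same holds for acvr1ca2, bambia2, gdf11b1, inhbab2, inhbcb1 and mstnb2, with 1 to 7 raw counts in Ovaries 3. All of these are among the 26, and the size of their decrease rests on background. In Ovaries 3, 16 of the 49 probes were at or below the mean plus 2 SD of its negative controls. In raw counts none of the 49 was more than 2-fold higher in Ovaries 3 and 36 were more than 2-fold lower, so the 12 higher values are relative to the reference genes. The positive controls of the 3 samples were alike, with factors of 1.17, 1.14 and 1.24. Extraction, ovarian stage and line are not given per sample, and their part in this difference was not tested.

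Over the 49 probes, log2(scaled count + 10) correlated at Pearson's r = 0.964 between Ovaries 1 and 2, 0.578 between Ovaries 1 and 3, and 0.613 between Ovaries 2 and 3. These correlations are across probes, which are not independent replicates, and they share the probes' efficiencies. With the mean of Testes the r values of Ovaries 1, 2 and 3 were 0.848, 0.839 and 0.691. Testes was the nearest of the 15 other tissues for each Ovaries sample, and Pyloric Caeca came next for Ovaries 3, at 0.654. The 49 include inhab1 and inhab2, which were high in both gonads and overlap in what they read. No r without these probes was computed, so their part in the nearness of Testes was not tested. The median SD between replicates over the probes was 0.587 (log2) in Ovaries, the 4th widest of the 23 tissues, and 0.229 in Testes.

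**Figure D4:**
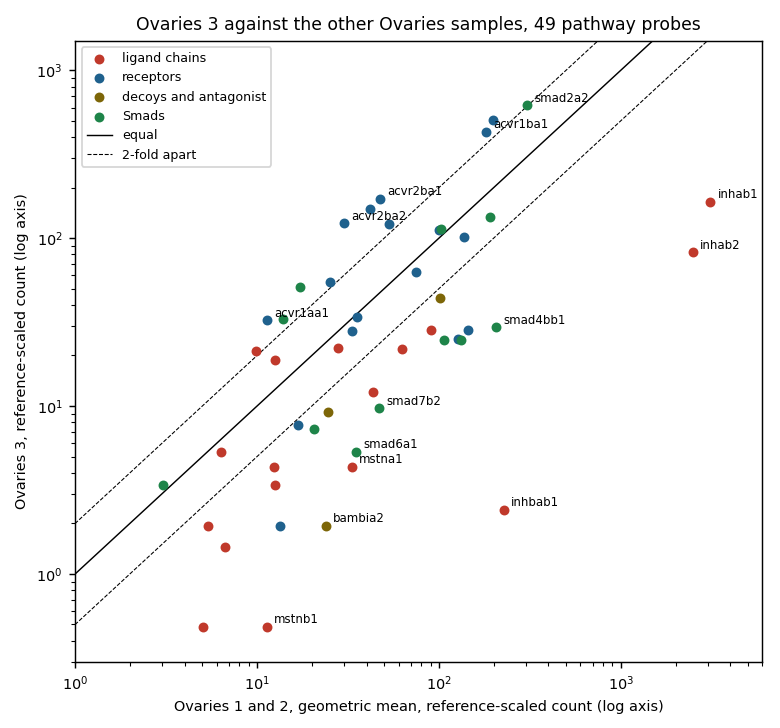
Reference-scaled count of each pathway probe in Ovaries 3 against the geometric mean of Ovaries 1 and 2, both on log axes; the solid line marks equal values and dashed lines 2-fold. Points above the upper dashed line number 12 and those below the lower one 26, with inhbab1, inhab2 and inhab1 among the farthest below.

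Against Testes, the other gonad, Ovaries were higher in 9 of 49 probes (18.4%) and lower in 2 (4.08%), together 11 (22.4%), by edgeR's quasi-likelihood test with adjustment over the 49. The split was 13 higher and 0 lower with the positive controls as scale (26.5%), 13 and 1 with ef1a and tbp (28.6%), and 6 and 3 with actb and ef1a (18.4%). With the pathway genes as scale and Ovaries 3 left out it was 3 higher (6.12%) and 8 lower (16.3%). With the negative controls subtracted, 2 of the 11 passed (4.08%), acvr1aa1 and acvr1aa2. The median log2 difference over the 49 was 0.53. Both comparisons use the same Ovaries samples, so they are not independent. The inhibin alpha probes did not differ past the threshold. In Testes inhab1 was at 1277, 1114 and 1078, below Ovaries 1 and 2 and above Ovaries 3, and the difference of Ovaries minus Testes was 0.91 ± 1.16 (log2, SE). For inhab2 the Testes levels were 901, 829 and 934, again between Ovaries 3 and the others, and the difference was 0.93 ± 1.08 (log2, SE). The inhab1 difference was 1.46 and the inhab2 difference 1.49 without Ovaries 3, neither past the threshold, and with limma the inhab2 difference turned to −0.11.

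The activin beta A copy inhbab1 was low in Testes, at 4.19, 5.26 and 4.87. Its raw counts there were 7, 12 and 13, each below the mean plus 2 SD of the sample's negative controls (27.7, 14.7 and 23.0), so the size of the difference rests on background. The fitted difference was 4.98 ± 1.02 (log2, SE, edgeR's quasi-likelihood test, adjusted p = 0.000243), 2.58 with limma and 6.31 with the negative controls subtracted, where it did not pass (adjusted p = 0.0804). Without Ovaries 3 the fitted difference was 5.55, while Ovaries 3 itself (2.42) was below every Testes sample. The other beta A genes did not follow it. The inhbaa2 level was 42.5, 19.7 and 36.0 in Testes against 16.9, 9.01 and 4.35 in Ovaries, lower in Ovaries by −1.67 ± 0.51 (log2, SE, edgeR's quasi-likelihood test, adjusted p = 0.0130). That call was lost without Ovaries 3 or Testes 1. Of the beta B genes, inhbbb1 was at 9.58, 8.32 and 20.6 in Testes, and Ovaries was higher by 2.54 ± 0.82 (log2, SE, edgeR's quasi-likelihood test, adjusted p = 0.0186), a call lost without Ovaries 1, Testes 1 or Testes 2.

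Receptors made up 6 of the 9 probes higher in Ovaries than in Testes, against 17 receptors of 49 probes on the panel. They were acvr1aa1 (2.89 ± 0.57, log2, SE), acvr2ba1 (2.74 ± 0.60), acvr2ba2 (2.56 ± 0.67), acvr1aa2 (2.49 ± 0.59), acvr1ba1 (1.88 ± 0.63) and acvr2bb (1.58 ± 0.42). In Testes acvr2ba1 was at 6.59, 16.6 and 16.5 and acvr1aa1 at 2.39, 1.75 and 3.00, and no Ovaries sample overlapped these values. The acvr1aa1 raw counts in Testes were 4, 4 and 8, around the negative controls' means of 10, 5.25 and 6.88, so the size of that difference rests on background (1.12 with limma). Without Ovaries 3, acvr1aa1 (2.22), acvr2ba1 (1.86) and acvr1aa2 (1.62) still passed, and acvr2ba2 (1.76), acvr2bb (1.14) and acvr1ba1 (1.41) did not. The call of acvr1ba1 was also lost without any single Testes sample. The receptor acvr2ab2 was lower in Ovaries, with Testes at 100, 92.9 and 105 (−1.48 ± 0.50, log2, SE, edgeR's quasi-likelihood test, adjusted p = 0.0239), and this was lost in 4 of the 6 fits that left out 1 gonad sample. The common Smad smad4bb2 was higher by 1.43 ± 0.51 (log2, SE), lost in each of those fits except the one without Ovaries 3. Over the 49 probes, 9 had every Ovaries sample above every Testes sample (18.4%) and 5 had every one below (10.2%). Without Testes 1 the count of calls was 6, and without Ovaries 3 it was 10 (20.4%), of which 6 were among the 11.

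The panel reads 21 duplicate pairs with a probe named for each copy. The share of a pair's counts that each probe takes can be compared between tissues without any reference gene. The inhab1 and acvr2ba1 probes read both loci of their pairs, so their shares are not those of 1 copy. Tested as an interaction of copy and tissue with edgeR and adjusted over the 21 pairs, the ratio of copies differed between Ovaries and the somatic mean in 10 pairs (47.6%). Without Ovaries 3 it differed in 2 (9.52%), both of them among the 10. With the negative controls subtracted edgeR called 0 of the 21 (3 at an unadjusted p below 0.05), and limma with a pseudocount of 1 called 2 (9.52%). The pair inhbab1 and inhbab2 had the largest difference. The inhbab1 copy took 98.4% of the pair's counts in Ovaries 1, 96.6% in Ovaries 2 and 55.6% in Ovaries 3, the last from 9 counts in all, against 9.30% (Liver) to 82.7% (Heart) over the somatic tissues. The log2 ratio of inhbab1 to inhbab2 was higher in Ovaries by 5.45 ± 0.64 (SE, edgeR's quasi-likelihood test, adjusted p = 2.64e-10), and between 4.63 and 5.93 with any 1 sample left out. Its somatic side lies near background, since these probes averaged 7.38 and 11 raw counts there beside a median of 6.75 for the mean of a sample's negative controls, and with these subtracted the difference of 7.02 did not pass.

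The pair inhbba1 and inhbba2 went the other way. The inhbba1 copy took 39.4%, 23.1% and 50.5% of the pair in Ovaries 1, 2 and 3, against a somatic median of 51.2%. The somatic tissues ran from 33.9% (Pelvic Fin) to 73.6% (Heart), and Ovaries 1 and 3 lay within this range. The log2 ratio was lower by −0.91 ± 0.31 (SE, edgeR's quasi-likelihood test, adjusted p = 0.0202). It was −1.26 without Ovaries 3, and the call was lost without Ovaries 2. The other 8 pairs called with all 3 samples lost the call without Ovaries 3. Among them, acvr1bb1 took 52.1%, 51.3% and 80.1% of its pair in Ovaries 1, 2 and 3, and gdf11b1 52.7%, 47.2% and 15.2% of its pair, so that Ovaries 3 was the sample that stood apart. In Ovaries 3 gdf11b1 had 7 raw counts, below that sample's negative-control mean of 7.5, and gdf11b2 had 39. The share of 15.2% therefore rests on background. For acvr1ba1 the share was 57.5%, 70.9% and 79.3%, against a somatic median of 44.9%. For acvr2ba1 the share was 71.6%, 49.5% and 58.4% against 44.6%, with the limit that this probe reads both loci. The somatic tissues ran from 33.6% (Spleen) to 53.4% (Pyloric Caeca), and Ovaries 2 lay within this range.

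The authors' deposited table gives 1 normalized value per gene and tissue. The geometric mean of the 3 Ovaries replicates was set beside it, after positive-control and reference scaling. It was also multiplied by 1 constant factor (0.848 on the log2 scale), which was fitted to the authors' Ovaries column itself. Up to that factor, 45 of 49 values of the Ovaries column in the authors' deposited table equalled this mean to within 0.1%. Ovaries 3 thus enters the column with the same weight as the others. In the authors' deposited table inhab2 is at 1437, inhbab1 at 89.8 and inhab1 at 667 in Ovaries, each ranked 1st of the 15 tissues compared. These ranks take the values as listed, although the columns are not all on 1 scale. Relative to Ovaries the fitted factor was −1.29 (log2) for Gill and Heart. It was −0.045 for Cardiac Stomach, Pelvic Fin, Retina and Distal Intestine. The inhab1 value of 667 is below the geometric mean of its own probe with the fitted factor, 2105. The sum of the inhab1 and inhab2 values in the authors' deposited table is 2105. For smad7b2 the authors' deposited table lists 40.4, which is 0.811 of the geometric mean with the fitted factor, 49.8.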

How the data were processed

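RNA was counted with a custom NanoString code set of 49 pathway probes, 3 reference genes, 6 positive and 8 negative controls in 70 samples. The authors deposited raw barcode counts, 1 whole number per probe and sample, not normalized, as the values themselves show (the lowest count is 1 and none is 0). The deposited normalized signal, 1 value per gene and tissue with replicates pooled, was made by a method not given in the sources used here. It was used to describe the Ovaries column and to find tissues on the same scale, and 7 skeletal muscle columns of it were not used. Probe targets, chromosomes and notes on shared probes came from the authors' lists. All 49 genes matched RefSeq gene identifiers.

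All 70 samples entered 1 quasi-likelihood model in edgeR 4.0.16 (R 4.3.3), with 1 coefficient for each tissue and offsets from the 3 reference genes (geometric mean of tbp, actb and ef1a). The contrasts were Ovaries minus the unweighted mean of the log-scale coefficients of 14 tissues, and Ovaries minus Testes. All tests were two-sided, and p-values were adjusted over the 49 probes by the Benjamini-Hochberg method, with a threshold of 0.05. Standard errors (SE) were not fitted but derived, as the absolute log2 difference divided by the square root of the F statistic. Pairs were tested by copy and tissue, each sample keeping its own level, over 21 pairs. The scripts were checked on simulated counts. limma 3.58.1 and DESeq2 1.42.0 were alternatives. Named probes were up to 12 per direction with the largest difference among calls with a mean count of at least 20 on the higher side, with the inhibin, activin, follistatin, bambi and acvr2 probes always named. The called acvr1ab2 and smad2a2 fall outside that rule and were named after their values were seen, as were probes given as examples. Members, lists and rules were chosen with earlier results of these data known.

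Replicates of a tissue were not copies of each other (lowest chi-squared per degree of freedom 52.5 among Ovaries and 1.60 among the 16 tissues). Replicate numbers were not used as pairs, and all samples were fitted as independent. Deviations of same-numbered Ovaries and somatic samples correlated above 0.1 in 2, 4 and 3 of 14 tissues for numbers 1, 2 and 3. Ovaries came from other fish, so these correlations could not show a pairing. Whether somatic tissues and Testes came from the same fish was not checked. Precision at low values is limited by background, and 1 to 16 of the 49 probes per Ovaries sample were at or below the mean plus 2 SD of its negative controls. Figures were drawn with matplotlib 3.10.9.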

Additional observations from a re-analysis of the deposited data

How the results depend on the processing

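Leaving out each sample in turn gave 9 to 17 calls against the somatic tissues, 6 to 10 against Testes and 2 to 11 pairs, and each somatic tissue left out gave 15 to 17. The count against somatic tissues was 23 with TMM, 23 with DESeq2's own size factors, 27 with the positive controls and 3 with the tissue as unit. The count against Testes was 2 with the negative controls subtracted and 7 with only the gonads in the fit. The count of pairs was 6, 2 and 6 with limma at pseudocounts of 10, 1 and 50, and with the negative controls subtracted edgeR called 0 pairs (3 at an unadjusted p below 0.05). Settings combined with leaving out Ovaries 3 were added after the data were seen. limma with a pseudocount of 10 then gave 6 calls against somatic tissues and 7 against Testes, the positive controls 34 and 19, and pathway scaling 16 (5 higher and 11 lower) and 11 (3 higher and 8 lower). With replicate number as a block the counts were 16 and 11, although the numbers cannot pair Ovaries with samples of other fish. Scale sets as a block were not run, since each tissue compared lies in 1 set, and the tissues on the scale of Ovaries gave 17 calls. Low counts limit inhbab1 in Ovaries 3 and Testes, acvr1aa1 in Testes and somatic tissues, and most chain probes in somatic tissues.

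Of 3419 alternative values for 56 reported differences, 3067 kept their direction and side of the threshold, 162 were no longer past it, 77 came past it and 113 changed sign. Many of these values come from fits that left out 1 of 42 somatic samples or 1 of 14 somatic tissues. Those fits kept all 15 calls against somatic tissues, so the number kept is no measure of robustness. The fit with a count minimum of 20 dropped no probe against somatic tissues and repeats the main fit there. Of these 113, 103 were past the threshold neither as reported nor under the alternative, and 6 belong to probes called as reported (acvr1aa1, acvr1ab2, acvr2ba2, acvr2bb, smad2a2 and smad7b2). The remaining sign changes belong to probes not called as reported, and passed the threshold with the opposite sign under the alternative. The turned differences (log2, against somatic tissues unless said) were as follows, and their cause was not tested. Pathway scaling turned bambia1 to −0.62, inhbaa2 to −0.47, inhbba1 to −0.39, inhbbb2 to −0.45 and mstna1 to −0.28. TMM turned bambia1 to −0.20, inhbaa2 to −0.0053 and inhbba1 to −0.027. The positive controls turned acvr1ca1 to 0.83, acvr2aa1 to 0.66, acvr2aa2 to 0.90, acvr2ab1 to 0.94, acvr2ab2 to 0.74, bambia2 to 1.01, inhbaa1 to 0.032, inhbab2 to 1.13 and smad6a1 to 0.057. ef1a with tbp turned bambia1 to −0.42, inhbaa2 to −0.26, inhbba1 to −0.35, inhbbb2 to −0.23 and mstna1 to −0.090. actb with tbp turned bambia1 to −0.16, inhbaa2 to −0.041 and inhbba1 to −0.15. Scaling on actb and ef1a turned acvr1ca1 to 0.19, acvr2aa2 to 0.44, acvr2ab1 to 0.50, acvr2ab2 to 0.34, bambia2 to 0.15 and inhbab2 to 0.36. DESeq2's own size factors turned bambia1 to −0.27, inhbaa2 to −0.082, inhbba1 to −0.060 and inhbbb2 to −0.060. A pseudocount of 10 turned bambia1 to −0.066, inhbaa2 to −0.012, inhbba1 to −0.031 and inhab2 against Testes to −0.11. limma with a pseudocount of 1 turned bambia1 to −0.038, inhbaa2 to −0.020 and inhab2 against Testes to −0.15. A pseudocount of 50 turned bambia1 to −0.089, inhbaa2 to −0.0039, inhbba1 to −0.094 and inhbbb2 to −0.024. Subtracting the negative controls turned acvr1ca1 to 0.25 and inhbab2 to 1.59. The replicate block turned bambia1 to −0.057. Taking the tissue as unit turned bambia1 to −0.018, inhbba1 to −0.74, inhbbb2 to −0.055 and mstna1 to −0.19. Without Ovaries 3 pathway scaling turned acvr1aa1 to −0.084, acvr1ab2 to −0.52, acvr2ba2 to −0.28, acvr2bb to −0.041, bambia1 to −0.56, inhbaa2 to −0.33, inhbba1 to −0.62, inhbbb2 to −0.25 and smad2a2 to −0.47. limma without Ovaries 3 turned bambia2 to 0.075. Without Ovaries 3 the positive controls turned acvr1ca1 to 1.30, acvr2aa1 to 1.19, acvr2aa2 to 1.28, acvr2ab1 to 1.31, acvr2ab2 to 1.09, bambia2 to 1.58, gdf11b1 to 0.32, inhbaa1 to 0.44, inhbab2 to 1.63, smad6a1 to 0.60 and smad7b2 to 0.51. Leaving out a somatic tissue turned bambia1 to −0.0098 without Brain, −0.11 without Head Kidney, −0.071 without Heart, −0.12 without Pyloric Caeca and −0.083 without Tongue. Leaving out a somatic tissue turned inhbba1 to −0.076 without Distal Intestine, −0.022 without Head Kidney and −0.10 without Pyloric Caeca. Leaving out a somatic tissue turned acvr1ca1 to 0.017 without Visceral Fat. With each sample left out, bambia1 ran from −0.45 to 0.31, bambia2 ran from −1.03 to 0.14, inhbaa2 ran from −0.45 to 0.47, inhbab2 ran from −1.06 to 0.14, inhbba1 ran from −0.22 to 0.20, inhbbb2 ran from −0.089 to 0.56 and mstna1 ran from −0.16 to 0.77.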
